A study of Mus musculus with 25 samples.

Results

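The 10 genes described here encode proteins of the contractile filaments of fast skeletal muscle fibres: the thin filament genes Acta1, Tpm1, Tpm2, Tnnt3, Tnni2 and Tnnc2, the thick filament genes Myh4, Mylpf and Myl1, and the Z-disc gene Actn3. They were taken by symbol, with earlier results of these data known. A gene was represented by a probe set that the platform annotation maps to its symbol alone. Where there were several, that with the highest mean log2 signal over all 25 arrays was used. All 10 were found, among 8251 genes with a single-symbol probe set, and all 10 passed the filter on low values. They had 15 such probe sets between them. RNA came from the tibialis anterior, a shin muscle made mostly of fast fibres. The mice were C57BL/6J females aged 2 to 3 months, with 1 array per sample. Freeze injury was made by holding steel cooled on dry ice, 6 mm across, to the muscle for 10 s. Contraction injury was made in the living mouse by 150 eccentric contractions, meaning that a muscle is lengthened while it is active. Freeze injury was sampled at 6 hours, 1 day and 3 days (3 arrays each) and at 7 days (2 arrays). Contraction injury was sampled at 6 hours, 3 days and 7 days (3 arrays each) and at 1 day (2 arrays), and 3 uninjured muscles were the controls. No group carried a transgene or a drug treatment in the labels. Whether any samples shared a mouse is not in the labels, so p-values here reflect only how far these samples vary, which may in part be technical.

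In a sarcomere, the thick filament of myosin heads pulls on the thin filament, a polymer of actin. Tropomyosin lies along the actin and covers the sites that myosin binds, and the troponin complex moves it aside when calcium binds to troponin C. Fast and slow fibres use different genes for most of these parts, and regenerating fibres first use embryonic and neonatal myosins. After injury, dead fibres are cleared by phagocytes and rebuilt by muscle precursor cells. In RNA of whole muscle, fewer fibres and less RNA per fibre cannot be told apart.

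Signals are linear array units, on arrays already brought to 1 trimmed mean before deposit, and changes are given as differences of log2(signal + 13), which understates the change of dim genes. One array stood apart from the others of its label. Sample 436, labelled freeze injury at 3 days, correlated across probe sets at r = 0.803 to 0.804 with samples 450 and 468, which share its label, and at 0.947 to 0.952 with the controls, while arrays of one group correlated at 0.939 to 0.976 otherwise. It was kept in its labelled group, and each result that rests on it is given with and without it. Because it was singled out for its likeness to the controls, leaving it out can overstate how far its group lies from them. The p-values and counts without it take no account of that choice. It entered the shared estimate of spread of every comparison, so leaving it out also changed calls at other times. The Affymetrix 3' to 5' signal ratio for actin, a measure of RNA integrity and labelling, was 1.01 to 1.31 after freeze at 1 day, 1.06 to 1.09 after freeze at 3 days without sample 436, 0.923 to 1.21 after contraction at 3 days and 0.56 to 0.595 in controls. That for Gapdh was 0.797 to 1.13 over all groups. Its part in the results was not tested.

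The probe sets of most of these genes were among the brightest on the arrays, which bears on how far a difference can be read. Those for Acta1, Tnnt3, Myh4 and Myl1 lay in the top 1% (125 probe sets) on all 25 arrays, those for Actn3, Tnnc2 and Tpm2 on 24, 23 and 21 arrays, and those for Mylpf, Tnni2 and Tpm1 on 0. The highest signal of any probe set was between 11490 and 32214 units, depending on the array, and the deposited values carry no saturation flag. The highest control read 2.21 times the lowest for Acta1 and Actn3, 2.05 times for Myh4, 1.40 to 1.80 times for Tnnc2, Myl1 and Tnni2, and 1.10 to 1.31 times for the others. Whether any probe was saturated was not tested.

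RefSeq promoter windows on the mouse build GRCm38.p6, from 250 bases before to 50 after a gene's start, were at hand for 7 of the 10 genes, and those for Tnnt3, Tnni2 and Actn3 are not shown. The windows of Acta1 and Myh4, which hold CArG matches, and that of Tpm1, the gene that moved the other way in the comparisons below, are printed 5' to 3'. Capitals mark matches on either strand to the CArG element bound by serum response factor, to the MEF2 element, or to the TATA box, searched as TATAAA.
Promoter of Acta1, minus strand, chr8:123894726-123895025: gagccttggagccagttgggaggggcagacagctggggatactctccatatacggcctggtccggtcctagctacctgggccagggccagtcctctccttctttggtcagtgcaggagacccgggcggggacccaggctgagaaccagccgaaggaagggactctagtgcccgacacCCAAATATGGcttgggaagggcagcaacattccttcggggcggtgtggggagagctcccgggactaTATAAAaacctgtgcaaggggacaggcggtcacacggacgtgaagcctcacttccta
Promoter of Myh4, plus strand, chr11:67237562-67237861: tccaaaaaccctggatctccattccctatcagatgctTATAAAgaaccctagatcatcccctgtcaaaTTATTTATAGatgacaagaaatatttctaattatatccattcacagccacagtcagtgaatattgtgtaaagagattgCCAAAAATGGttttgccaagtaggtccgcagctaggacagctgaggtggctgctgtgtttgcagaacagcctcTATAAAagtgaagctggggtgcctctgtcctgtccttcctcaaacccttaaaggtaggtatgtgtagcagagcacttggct
Promoter of Tpm1, minus strand, chr9:67049164-67049463: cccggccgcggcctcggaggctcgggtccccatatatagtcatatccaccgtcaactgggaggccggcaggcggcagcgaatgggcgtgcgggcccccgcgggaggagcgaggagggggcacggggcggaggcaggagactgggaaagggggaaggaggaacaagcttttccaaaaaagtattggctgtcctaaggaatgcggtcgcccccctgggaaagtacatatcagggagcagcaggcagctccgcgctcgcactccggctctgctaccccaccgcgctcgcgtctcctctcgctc
The CArG element was matched in 2 of the 7 windows, Acta1 and Myh4, and in 1.63% of all 32851 promoter windows of this length. The MEF2 element was matched in 1 of 7 (Myh4), against 3.19% of all windows, and in Myh4 it overlapped a TATAAA match. TATAAA was matched in 3 of 7 (Acta1, Myh4 and Myl1), against 13.6%. The muscle CAT motif, searched as CATTCC, was matched in 4 of 7 (Acta1, Tpm1, Myh4 and Myl1), against 14.7%, and the E-box CANNTG, which MyoD family factors bind, in all 7, against 72.3%. No capital stands in the Tpm1 window, which says only that these letters are not in it.

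The median change from control of the 9 genes other than Tpm1 was -1.31 at 3 days after freeze, and -2.11 without sample 436. After contraction it was -0.66 at 3 days and -0.17 at 7 days, and after freeze -0.57 at 1 day and -0.52 at 7 days. Without sample 436 the mean signal of each of these 9 genes was lowest at 3 days after freeze. With all arrays it was lowest at 3 days after contraction for Tnnc2, Myh4 and Actn3, and at 7 days after freeze for Acta1. Tpm1 went the other way and was higher after freeze from 1 day on. With all 25 arrays, 3 of the 10 (Mylpf, Tnni2 and Tpm2) fell and Tpm1 rose at 3 days after freeze, by limma with Benjamini-Hochberg adjustment over 9506 tested probe sets and a call under 0.05. Over all tested probe sets 8.18% were called lower and 9.68% higher in that comparison. The count lower was 0 without sample 450 or without sample 468, 1 without control 1 or control 3 and 2 without control 2. Without sample 436, all 9 genes other than Tpm1 fell and Tpm1 rose, against 20.8% of tested probe sets called lower and 21.6% higher. The median change of the 10 was -1.30 with all arrays and -2.02 without sample 436, against -0.09 and -0.12 over all tested probe sets.

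At 3 days after contraction 1 gene, Tpm2, fell (2.58% of tested probe sets called lower). That call was lost on leaving out any 1 of 21 arrays other than sample 436. Without sample 436, which is no array of this comparison but enters the shared estimate of spread (median residual SD 0.323 without it and 0.385 with it), 6 fell (Mylpf, Myh4, Tnnt3, Tnni2, Tpm2 and Actn3), against 9.69% of tested probe sets. No gene was called higher (5.67% of tested probe sets with all arrays and 13.1% without sample 436).

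At 1 day after freeze limma called 0 of the 10 lower, with 1 lower gene, Tpm2, and 1 higher gene, Tpm1, at an unadjusted p under 0.05, while 5.06% of tested probe sets were called lower. Without sample 436 it called 5 lower (Mylpf, Tnnt3, Tnni2, Tpm2 and Actn3), against 12% of tested probe sets, and without sample 450 it called 1. Tpm1 was called higher there without sample 436 (14.8% of tested probe sets called higher) but not with all arrays (9.15%). At 7 days after freeze it called 0 with all arrays (no gene that was lower had an unadjusted p under 0.05, and 1.64% of tested probe sets were called lower) and 1, Tpm2, without sample 436 (7.83% of tested probe sets). Tpm1 was again called higher without sample 436 (11.7% of tested probe sets called higher) and not with all arrays (3.65%).

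At 6 hours after freeze, 6 hours after contraction, 1 day after contraction and 7 days after contraction, limma called 0 of the 10 genes lower with or without sample 436, and 0 had an unadjusted p under 0.05 either way. Of tested probe sets, 1.51%, 0.242%, 0.158% and 0.0631% were called lower in these comparisons with all arrays, and 4.98%, 0.831%, 1.08% and 0.789% without sample 436. None of the 10 was called higher, against 3.33%, 1.63%, 1.63% and 0.473% of tested probe sets with all arrays, and 6.42%, 2.52%, 3.25% and 2.24% without sample 436. The median change of the 10 genes was -0.19 at 6 hours after freeze, -0.15 at 6 hours after contraction, -0.32 at 1 day after contraction and -0.17 at 7 days after contraction. All arrays of the group lay below every control for 1 of the 10 genes, Tpm2, at 6 hours after freeze, 6 hours after contraction and 7 days after contraction, against 13.8%, 10.2% and 9.0% of tested probe sets. At 1 day after contraction this held for 2, Tpm2 and Mylpf, against 14.8%. These counts are near the shares over all probe sets.

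**Figure D1:**
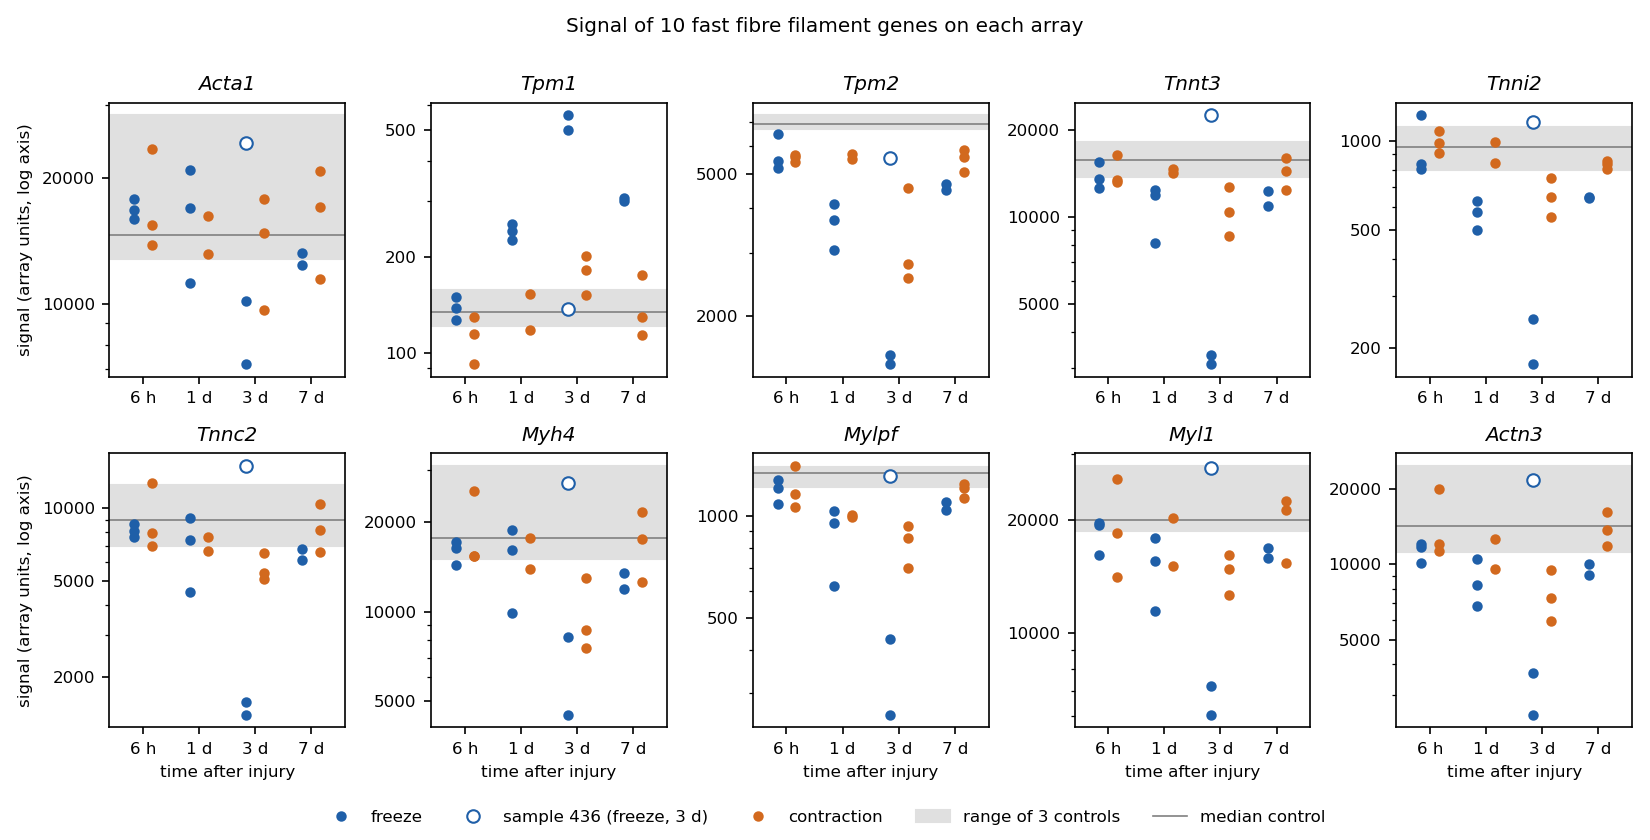
Signal of each of the 10 genes on every array (log axis, array units) by time after freeze (blue) or contraction (orange). The grey band spans the 3 controls, the grey line is their median, and the open circle is sample 436. At 3 days after freeze the other 2 arrays lie below the band for 9 genes and above it for Tpm1.

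Acta1 (probe set 100381_at) encodes skeletal alpha-actin, the subunit of the thin filament. At 3 days it read 24356, 7191 and 10199 units after freeze (samples 436, 450 and 468), 14793, 9700 and 17852 after contraction, and 12822, 14636 and 28305 in controls. Sample 436 lay inside the control range and the other 2 freeze arrays below it. The change at 3 days after freeze was -0.52 ± 0.42 (SE; limma adjusted p = 0.388), and -1.03 ± 0.35 (adjusted p = 0.0197) without sample 436, the smallest fall of the 9 genes. At 7 days Acta1 read 13244 and 12416 after freeze and 11489, 20874 and 17075 after contraction, and both groups overlapped the controls. By a moderated F test for any change among the 8 injured groups it was the only 1 of the 10 that was not called without sample 436 (adjusted p = 0.251).

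Tpm2 (100605_at), beta-tropomyosin, was the gene whose injured arrays lay most regularly below the controls. It read 5199, 6447 and 5416 units at 6 hours after freeze, 3719, 3051 and 4112 at 1 day, 5549 (sample 436), 1460 and 1549 at 3 days, and 4688 and 4510 at 7 days. After contraction it read 5583, 5654 and 5399 at 6 hours, 5685 and 5485 at 1 day, 2553, 4561 and 2788 at 3 days, and 5581, 5053 and 5837 at 7 days. The controls read 6663, 7299 and 6882, above every injured array, sample 436 included. In single groups, 9.0% to 23.7% of tested probe sets lay wholly below the controls. The share that did so in all groups was not counted. The change at 3 days was -1.57 ± 0.35 after freeze (adjusted p = 0.0117) and -1.12 ± 0.35 after contraction (adjusted p = 0.048). Without sample 436 these were -2.20 ± 0.20 (adjusted p = 1.08e-08) and -1.12 ± 0.18 (adjusted p = 8.49e-05), and Tpm2 was also called at 1 day after freeze (-0.95 ± 0.18, adjusted p = 0.000392) and at 7 days after freeze (-0.59 ± 0.20, adjusted p = 0.0414). A second Tpm2 probe set was dim, at no more than 63.9 units, correlated at r = 0.469 with the first and was not called in any comparison with control.

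Tpm1 (160532_at), alpha-tropomyosin, is transcribed in fast fibres and also, as other splice forms, in smooth muscle and many non-muscle cells. It went the other way. After freeze it read 139, 127 and 150 units at 6 hours, 226, 254 and 241 at 1 day, 137 (sample 436), 556 and 500 at 3 days, and 299 and 306 at 7 days, against 134, 157 and 122 in controls. Apart from sample 436, every freeze array from 1 day on lay above every control. Of tested probe sets, 18.5%, 29.2% (without sample 436) and 23.1% lay wholly above the controls at 1, 3 and 7 days after freeze. The share that did so at all these times was not counted. After contraction it read 92.5, 130 and 115 at 6 hours, 118 and 154 at 1 day, 201, 182 and 152 at 3 days, and 130, 176 and 114 at 7 days, with overlap with the controls at each time. The change at 3 days after freeze was 1.23 ± 0.32 (adjusted p = 0.0176). The adjusted p was 0.156 without sample 450, 0.144 without sample 468 and 0.054 without control 3, so the call depended on each of them. Without sample 436 the change was 1.85 ± 0.20 (adjusted p = 8.5e-08), and Tpm1 was also called at 1 day (0.75 ± 0.18, adjusted p = 0.00247) and 7 days (1.07 ± 0.20, adjusted p = 0.000423) after freeze. Those last 2 differences were the same size with all arrays but missed the threshold (adjusted p = 0.116 and 0.0788). After contraction no difference of Tpm1 from control was called with or without sample 436, and the difference at 3 days was 0.34 ± 0.32 with all arrays (adjusted p = 0.522). The annotation does not say which splice forms the probe set reads. This probe set therefore did not move as the other fast fibre genes of the group did.

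The fast troponin subunits are Tnnt3, which ties the complex to tropomyosin, Tnni2, which inhibits contraction at low calcium, and Tnnc2, which binds calcium. Tnnt3 (92885_at) read 22462 (sample 436), 3089 and 3317 units at 3 days after freeze, 8560, 10392 and 12671 at 3 days after contraction, and 13777, 18109 and 15785 in controls. Tnni2 (93532_at) read 1157 (sample 436), 176 and 251 at 3 days after freeze, 649, 750 and 554 at 3 days after contraction, and 956, 1117 and 797 in controls. Tnnc2 (162325_f_at) read 15042 (sample 436), 1582 and 1401 at 3 days after freeze, 5128, 5386 and 6522 at 3 days after contraction, and 6988, 8963 and 12569 in controls. For each of the 3, the contraction arrays lay below all controls and above samples 450 and 468, while sample 436 lay above all controls.

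With all arrays Tnni2 was called at 3 days after freeze (-1.31 ± 0.39, adjusted p = 0.0288), and Tnnt3 (-1.36 ± 0.48, adjusted p = 0.0523) and Tnnc2 (-1.51 ± 0.56, adjusted p = 0.0628) missed the threshold. Without sample 436 the changes were -2.11 ± 0.20 for Tnni2 (adjusted p = 1.35e-08), -2.30 ± 0.22 for Tnnt3 (adjusted p = 2.4e-08) and -2.62 ± 0.29 for Tnnc2 (adjusted p = 1.39e-07). Samples 450 and 468 averaged 15.7% of the control mean signal for Tnnc2, the lowest share among the 10 genes, 20.2% for Tnnt3 and 22.3% for Tnni2. At 1 day Tnni2 read 625, 499 and 574 after freeze, all below the controls, and 994 and 845 after contraction, within the control range. The Tnnc2 probe set carries the suffix that Affymetrix gives to probes shared within a gene family, and a second Tnnc2 probe set read at most 8.3 units and was not tested.

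Among thick filament genes, Myh4 (98488_at) encodes myosin heavy chain IIb, the motor of the fastest fibres of the mouse, and Mylpf (92881_at) and Myl1 (92541_at) its regulatory and essential light chains. Mylpf read 1310 (sample 436), 433 and 258 units at 3 days after freeze, 700, 932 and 860 at 3 days after contraction, and 1336, 1215 and 1391 in controls. Myl1 read 27525 (sample 436), 6049 and 7228 at 3 days after freeze, 14762, 12583 and 16078 at 3 days after contraction, and 18651, 20018 and 27903 in controls. Myh4 read 27111 (sample 436), 4498 and 8197 at 3 days after freeze, 7556, 8671 and 13014 at 3 days after contraction, and 15068, 17696 and 30947 in controls. All 3 contraction arrays lay below every control for each of these genes. For Mylpf and Myl1 samples 450 and 468 lay below the contraction arrays as well, whereas for Myh4 sample 468 lay between 2 of them.

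Of these, Mylpf was called at 3 days after freeze with all arrays (-1.29 ± 0.34, adjusted p = 0.0192), and the call held without sample 436 (-1.93 ± 0.21, adjusted p = 1.13e-07). Its second probe set, 162101_f_at, changed by -1.57 with all arrays (adjusted p = 0.0584) and by -2.67 without sample 436 (adjusted p = 1.31e-06). That probe set carries the same family suffix as the one for Tnnc2. Myl1 changed by -1.04 ± 0.43 (adjusted p = 0.0888) and Myh4 by -1.01 ± 0.48 (adjusted p = 0.134) with all arrays. Without sample 436 they fell, by -1.72 ± 0.27 (adjusted p = 1.77e-05) and -1.73 ± 0.35 (adjusted p = 0.000307). Myh4 was the 1 gene of the 9 whose changes at 3 days after freeze and after contraction were closest with all arrays, at -1.01 and -1.09. A second Myh4 probe set was dim, at 16.6 to 112.7 units, and correlated at r = 0.523 with the first.

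Actn3 (100879_at) encodes alpha-actinin 3, which crosslinks thin filaments at the Z-disc of fast fibres. It read 21734 (sample 436), 2510 and 3678 units at 3 days after freeze, 7356, 5940 and 9505 at 3 days after contraction, and 11175, 14182 and 24729 in controls. Both injured groups lay below the controls apart from sample 436. The change at 3 days after freeze was -1.43 ± 0.52 (adjusted p = 0.0581), and -2.37 ± 0.31 without sample 436 (adjusted p = 1.37e-06). Its second probe set, 162164_f_at, fell by 1.72 with all arrays (adjusted p = 0.049) and was also called without sample 436 (adjusted p = 1.26e-09). Over the 25 arrays the 2 probe sets correlated at r = 0.926. The second carries the same family suffix as the Tnnc2 probe set.

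**Figure D2:**
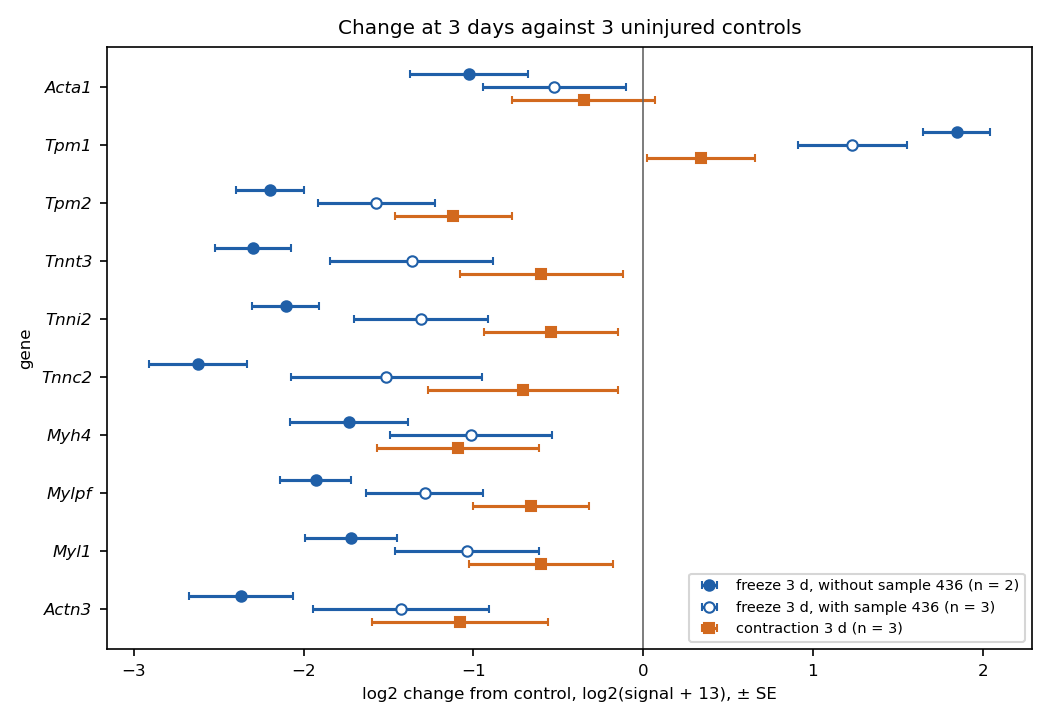
Change of each gene at 3 days from the 3 controls in log2(signal + 13), with SE from the limma fit. Filled circles are freeze without sample 436, open circles freeze with it, and squares contraction. Without sample 436 the freeze values run from -2.62 for Tnnc2 to -1.03 for Acta1 among 9 genes, and Tpm1 stands at 1.85.

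Freeze was set against contraction at each time to ask where the injuries differed. With all 25 arrays limma called 0 of the 10 genes lower after freeze than after contraction at 6 hours, 1 day, 3 days or 7 days. The genes at an unadjusted p under 0.05 in either direction numbered 0, 1, 1 and 1 at those times, and 0.0526%, 0.736%, 0.347% and 0% of tested probe sets were called lower. None was called higher, against 0.252%, 0.715%, 0.0421% and 0.368% of tested probe sets. Without sample 436 the counts lower were 0, 2 (Tnni2 and Tpm2), 7 and 0, against 0.547%, 3.72%, 8.1% and 1.63% of tested probe sets. The 7 genes at 3 days ran from -1.08 ± 0.20 for Tpm2 (adjusted p = 0.000669) to -1.91 ± 0.29 for Tnnc2 (adjusted p = 9.03e-05). The other 2 were Myh4, at -0.64 ± 0.35 (adjusted p = 0.232), and Acta1, at -0.68 ± 0.35 (adjusted p = 0.199).

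Averaged over the 4 times, Tpm1 was higher after freeze than after contraction by 0.75 ± 0.17 (adjusted p = 0.0147), the only call among the 10 with all arrays, where 4.06% of tested probe sets were called higher and 2.05% lower. Without sample 436 it was higher by 0.91 ± 0.10 (adjusted p = 3.43e-07), and 7 genes were lower after freeze, against 17% of tested probe sets called higher and 13.9% lower. Tnni2 differed most among those 7, by -0.67 ± 0.10 (adjusted p = 1.21e-05), and the 2 without a call were Acta1 (-0.22 ± 0.17, adjusted p = 0.343) and Myh4 (-0.34 ± 0.17, adjusted p = 0.138). Without sample 436 Tpm1 was higher after freeze at 1 day by 0.77 ± 0.20 (adjusted p = 0.0126), at 3 days by 1.51 ± 0.20 (adjusted p = 2.12e-05) and at 7 days by 1.07 ± 0.20 (adjusted p = 0.0013), against 6.42%, 8.85% and 5.64% of tested probe sets called higher at those times. At 6 hours it was not called (0.28 ± 0.18, adjusted p = 0.508, 1.81% of tested probe sets called higher). At 1, 3 and 7 days every freeze array but sample 436 lay above every contraction array of the same time. The share of all tested probe sets with that pattern was not counted. An interaction of injury and time was called for 0 of the 10 genes with all arrays (0.589% of tested probe sets) and for 5 without sample 436 (Mylpf, Tnnt3, Tnni2, Tnnc2 and Tpm1, against 4.45%). Any change from control by the F test was called for Tpm1 (adjusted p = 0.0103) and Tpm2 (adjusted p = 0.0232) with all arrays, against 26.2% of tested probe sets. Without sample 436 it was called for 9, against 49.3%, and without sample 450 or sample 468 for 1.

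The course over time was followed by the steps between neighbouring times within each injury. With all arrays, limma called 0 of the 10 genes in any of the 6 steps, and 5 of the tests of single genes had an unadjusted p under 0.05. After freeze 1.28%, 1.61% and 0.0947% of tested probe sets were called lower, and 2.28%, 0.494% and 0.715% higher, from 6 hours to 1 day, 1 to 3 days and 3 to 7 days. After contraction these shares were 0%, 0.831% and 0.473% lower, and 0.0421%, 0.326% and 0.368% higher. Without sample 436, from 1 to 3 days after freeze 8 genes fell and Tpm1 rose (8.83% and 9.26% of tested probe sets called lower and higher), and only Acta1 was not called (adjusted p = 0.0803). From 3 to 7 days after freeze 7 genes rose and Tpm1 fell, by -0.77 ± 0.22 (adjusted p = 0.0141), against 8.22% of tested probe sets called higher and 8.87% lower. The rises ran from 1.30 ± 0.30 for Myl1 (adjusted p = 0.00319) to 2.11 ± 0.32 for Tnnc2 (adjusted p = 6.65e-05). From 6 hours to 1 day after freeze Tnni2 (-0.72 ± 0.18, adjusted p = 0.00756) and Tpm2 (-0.65 ± 0.18, adjusted p = 0.0174) fell and Tpm1 rose (0.74 ± 0.18, adjusted p = 0.00602), against 5.61% of tested probe sets called lower and 9.14% higher. After contraction Tpm2 fell from 1 to 3 days (-0.81 ± 0.20, adjusted p = 0.0123, against 3.83% of tested probe sets called lower and 5.89% higher), and Tpm2 (0.78 ± 0.18, adjusted p = 0.00521) and Actn3 (0.88 ± 0.28, adjusted p = 0.0341) rose from 3 to 7 days, against 5.26% called higher and 7.88% lower. From 6 hours to 1 day after contraction none of the 10 was called, against 0.0842% of tested probe sets called lower and 0.442% higher.

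At 7 days after freeze both arrays still lay below every control for 8 of the 10 genes, the 2 others being Acta1, which overlapped the controls, and Tpm1, which lay above them. Over all tested probe sets 23.7% lay wholly below and 23.1% wholly above the controls in that group of 2 arrays. The means of the 9 genes other than Tpm1 were 57.0% (Actn3) to 81.2% (Mylpf) of the control mean signal after freeze at 7 days, and 79.0% (Tpm2) to 90.8% (Mylpf) after contraction at 7 days. At 3 days all 3 contraction arrays lay below every control for 8 genes, against 15.8% of tested probe sets, and samples 450 and 468 did so for 9, against 32.9%. At 1 day all 3 freeze arrays did so for 6 genes, against 17.7%.

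The 10 genes together made up 1.01% and 1.31% of the summed signal of all probe sets on samples 450 and 468, 4.27% on sample 436, 2.15% to 2.72% at 3 days after contraction and 2.90% to 4.60% in controls. At 7 days the share was 2.61% to 2.63% after freeze and 2.67% to 3.58% after contraction. The genes other than Tpm1 varied together over the arrays. Across the 25 arrays, which share the groups and the scaling, each pair of these 9 genes correlated at r = 0.519 to 0.959 with a median of 0.871, and Tpm1 correlated with each of them at -0.878 to -0.572. Among these 9 genes, correlation with the median of all other members, Tpm1 included, was lowest for Acta1, at 0.777, and highest for Tnnc2, at 0.977. For Tpm1 it was -0.826. These correlations are descriptions, and sample 436 is among the arrays.

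Over the same 25 arrays the genes with the profile most like the median of the 10 were Pvalb (r = 0.98), which encodes the calcium buffer parvalbumin, Eno3 (0.979), muscle enolase, Atp2a1 (0.976), the calcium pump of fast fibres, then Eef1a2 (0.964), Coq9 (0.961), Nipsnap2 (0.959), Slc25a4 (0.957) and Ndufb5 (0.957), out of 6906 genes compared. Without sample 436, 7 of these 8 were again among the nearest 8. Pvalb ranged over 3673 to 26213 units at 3 days after freeze (3673 and 3916 without sample 436), 7436 to 10082 at 3 days after contraction, and 16859 to 25063 in controls. The 8 genes nearest to Tpm1, looked up after its values had been seen, began with Gng10 (r = 0.943), Csrp1 (0.941) and Scpep1 (0.929). Cmtm3 (0.912), Gpr137b (0.91), Ppib (0.91), Aif1 (0.908) and Antxr2 (0.908) followed.

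Other genes of fast fibres also fell at 3 days after freeze. Of 16 listed, among them Myh1, Atp2a1, Pvalb, Ryr1, Casq1 and the glycolytic genes Eno3, Pgam2 and Pygm, 13 were tested. At 3 days after freeze 11 of the 13 fell with all arrays and 13 of 13 without sample 436, with a median change of -1.66 and -2.50. At 1 day after freeze 3 fell (12 without sample 436), and at 3 days after contraction limma called 0 lower (9 at an unadjusted p under 0.05) with all arrays and 12 without sample 436. Ckm, muscle creatine kinase, changed by -1.83 ± 0.56 (adjusted p = 0.0302) at 3 days after freeze, and by -3.02 ± 0.21 (adjusted p = 2.46e-10) without sample 436. Myh1, myosin heavy chain IIx, changed by -0.92 ± 0.42 (adjusted p = 0.124), and by -1.68 ± 0.24 (adjusted p = 6.07e-06) without sample 436.

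Slow and cardiac relatives of the members did not move as a block. Of 11 tested at 3 days after freeze, 3 rose (Tnnt1, Tnnt2 and Tnnc1) and 2 fell (Actc1 and Myl3), and without sample 436 there were 4 and 5. At 7 days, 4 rose after freeze (Tnnt1, Tnnt2, Tnni1 and Tnnc1) and 3 after contraction (Tnnt1, Tnnt2 and Tnni1). With all arrays limma called 0 lower at 7 days, with 1 at an unadjusted p under 0.05 after each injury. Without sample 436, Myl3 was called lower at 7 days after both injuries, and Tnnc1 was also called higher after contraction. Tnni1, slow troponin I, read 4151 and 4498 units at 7 days after freeze, 1187 to 2748 at 7 days after contraction, and 135 to 175 in controls. Its change was 4.68 ± 0.80 after freeze (adjusted p = 0.00203) and 3.51 ± 0.71 after contraction (adjusted p = 0.0222). Actc1, cardiac actin, which is also made by developing muscle, fell at 3 days after contraction (-1.31 ± 0.26, adjusted p = 0.00561) and after freeze (-0.97 ± 0.26, adjusted p = 0.0204), unlike the slow troponins. Both calls of Actc1 held without sample 436.

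The difference between a member and its slow or cardiac relative was followed in 9 pairs, as the difference of their log2 signals on each array relative to the control mean. For Tnni2 and Tnni1 it averaged -5.23 at 3 days after freeze without sample 436 (1.77 on sample 436), -2.55 at 3 days after contraction, -5.23 at 7 days after freeze and -3.70 at 7 days after contraction. For Tnnc2 and Tnnc1 it averaged -5.16 at 3 days after freeze without sample 436 (0.42 on sample 436) and -2.02 at 3 days after contraction, then -3.62 at 7 days after freeze and -2.04 at 7 days after contraction. For Tnnt3 and Tnnt1 it averaged -5.39 at 3 days after freeze without sample 436 (0.76 on sample 436) and -2.29 at 3 days after contraction, then -4.54 at 7 days after freeze and -3.77 at 7 days after contraction. At 7 days these 3 pairs lay below all controls after both injuries, but not all pairs went that way. Myl1 and Myl3 averaged 1.33 at 7 days after freeze and 1.88 at 7 days after contraction, above all controls, and Mylpf and Myl2 averaged -0.32 at 7 days after freeze and 0.82 at 7 days after contraction. The 4 other pairs averaged between -0.94 and -0.31 at 7 days after freeze and between -0.74 and -0.32 at 7 days after contraction. In an exact two-sided permutation test of freeze against contraction within times, 0 of the 9 pairs passed after Benjamini-Hochberg adjustment over the pairs, with 1 at an unadjusted p under 0.05 (Tnnc2 and Tnnc1, -1.10, p = 0.0473). Without sample 436, 3 passed: Tnni2 and Tnni1 (-1.39, exact permutation adjusted p = 0.00135), Tnnc2 and Tnnc1 (-1.57, adjusted p = 0.0045) and Tpm2 and Tpm3 (-0.48, adjusted p = 0.0299). In the exact permutation test of all injured against control arrays 0 of 9 passed, with 2 at an unadjusted p under 0.05 (Tpm2 and Tpm3, and Actn3 and Actn2) and the lowest adjusted p at 0.215.

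**Figure D3:**
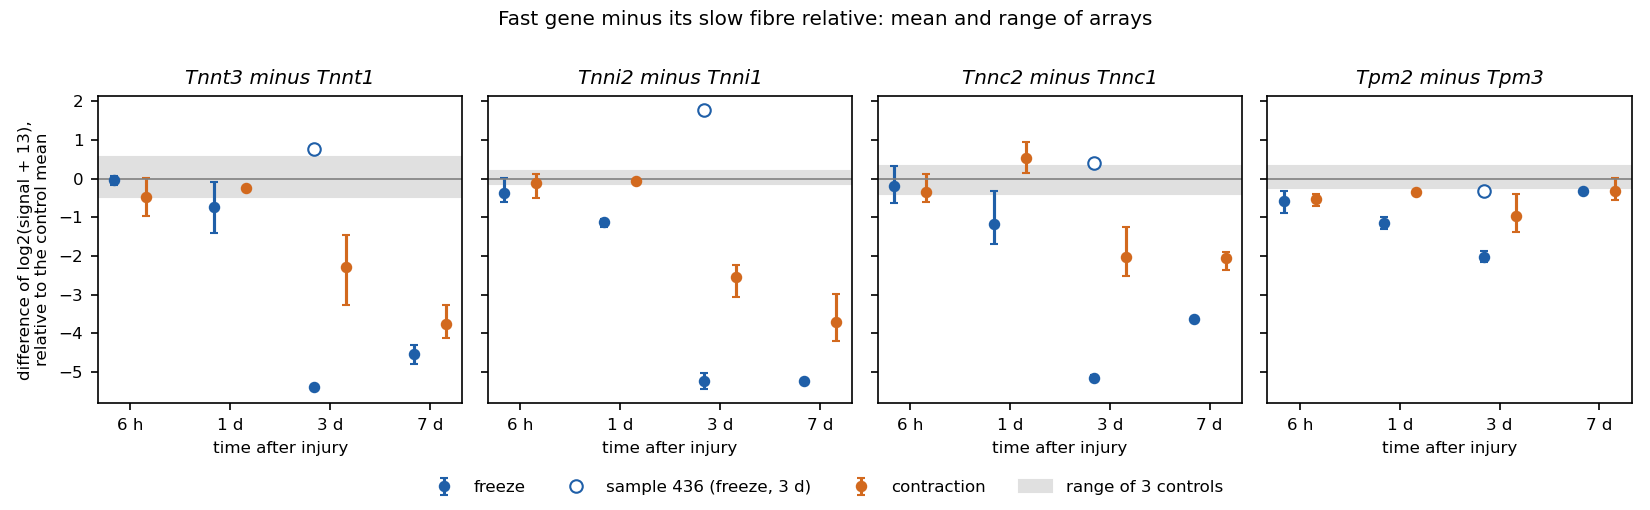
Difference of log2(signal + 13) between a fast gene and its slow fibre relative, relative to the control mean, by time after freeze (blue) or contraction (orange). Points are means and bars the range of arrays, the open circle is sample 436, which is left out of the means, and the grey band spans the controls. The 3 troponin pairs lie far below the band at 3 and 7 days, and Tpm2 minus Tpm3 is back near it at 7 days.

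Of 5 developmental sarcomere genes, 3 (Tnnt2, Myl4 and Myh3) rose at 3 days after freeze, against 9.68% of tested probe sets called higher. Without sample 436 Myh8 rose there as well, against 21.6%. At 3 days after contraction none was called higher with all arrays (5.67%), and the same 3 were without sample 436 (13.1%). The other gene, Actc1, fell at 3 days after both injuries. Actc1 and Tnnt2 are also among the slow and cardiac relatives above. At 7 days 4 (Tnnt2, Myh8, Myl4 and Myh3) rose after freeze and 4 after contraction, with or without sample 436. Of tested probe sets, 3.65% after freeze and 0.473% after contraction were called higher at 7 days with all arrays. Without sample 436 these shares were 11.7% and 2.24%. Myh3, embryonic myosin, read 1018 and 1238 units at 7 days after freeze, 130 to 384 at 7 days after contraction and 1.1 to 19.7 in controls, which is near the floor of the array. Myh8, neonatal myosin, changed by 4.96 ± 0.31 at 7 days after freeze (adjusted p = 1.59e-09) and by 3.33 ± 0.27 at 7 days after contraction (adjusted p = 4.27e-07).

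Some relatives of the members that act in non-muscle or smooth muscle cells also rose after freeze. Of 12, 6 rose at 1 day after freeze, 4 at 3 days (7 without sample 436) and 2 at 7 days (7 without sample 436). Of tested probe sets, 9.15%, 9.68% and 3.65% were called higher at those times, and 14.8%, 21.6% and 11.7% without sample 436. Without sample 436, Myl9 and Myh11 were called lower at 3 days after freeze, and Myl9 at 3 days after contraction. After contraction 2 rose at 3 days, Actb and Actn1 (5 without sample 436), and limma called 0 higher at 7 days, with or without sample 436, where 1 had an unadjusted p under 0.05. The shares of tested probe sets called higher were 5.67% and 0.473% at these times, and 13.1% and 2.24% without sample 436. Averaged over the 4 times, 6 were higher after freeze than after contraction (7 without sample 436), against 4.06% and 17% of tested probe sets. Tpm4, a cytoskeletal tropomyosin, was higher by 1.29 ± 0.24 (adjusted p = 0.0035), and Acta2, smooth muscle actin, by 0.65 ± 0.13 (adjusted p = 0.00517). Both were also called without sample 436. Marker genes of other cells were read on the same arrays. The summed signal of 10 macrophage markers was 21651 and 22746 on samples 450 and 468, 333 on sample 436, 8072 to 11670 at 3 days after contraction and 438 to 632 in controls. That of 7 fibroblast markers was 21539 and 22068 at 7 days after freeze, 4021 to 7607 at 7 days after contraction and 2884 to 5164 in controls. The 5 smooth muscle markers summed to 617 to 680 at 1 day and 881 to 923 at 3 days after freeze, sample 436 included. Their sum was 1156 to 1396 at 7 days after freeze and 693 to 954 in controls. Of these 5 only Acta2 was called higher at 3 or 7 days after freeze, and Smtn was called lower at 1 day. Without sample 436, Myh11 was also called lower at 3 days after freeze. Their part in the results for Tpm1 and for the other filament genes was not tested.

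**Figure D4:**
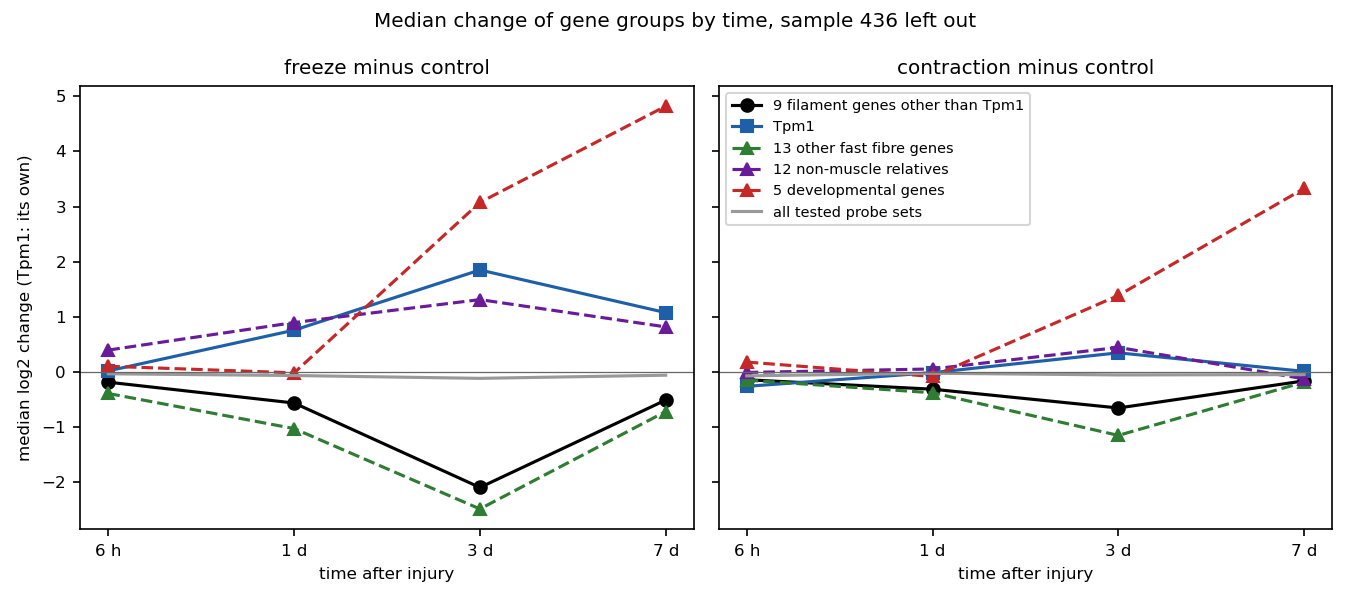
Median log2 change from control by time after freeze (left) and contraction (right), sample 436 left out, for the 9 filament genes other than Tpm1, other fast fibre genes, developmental genes, non-muscle relatives and all tested probe sets, with Tpm1 alone. The filament and other fast fibre genes have their minimum at 3 days in both panels, and Tpm1 stands at 1.85 after freeze at that time.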

How the data were processed

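RNA of 25 tibialis anterior muscles was measured on Affymetrix arrays, 1 per muscle. Each deposited value is a linear signal intensity of a probe set; the submitters' processing notes name MAS5 and give no version. The mean signal after trimming 2% at either end was 150.09 to 150.13 on all arrays, so changes are relative to the bulk of the array. Precision is limited by 2 or 3 arrays a group.

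Of 12488 probe sets, 10833 had 1 symbol in the platform annotation. Analysis used log2(signal + 13), where 13 is the 20th percentile of all signals, and 9506 probe sets above their array's 40th percentile on at least 2 arrays were tested. limma 3.58.1 (R 4.3.3) estimated 9 group means in 1 model of the 25 arrays, with trended eBayes. Its two-sided p-values were Benjamini-Hochberg adjusted for every comparison separately, and a gene was called under 0.05. The procedure was tested on simulated data. Promoter windows came from RefSeq (GRCm38.p6). The members, gene lists and tests were chosen with earlier results of these data known. All 10 members are named, and other genes come from the lists or are those nearest in profile.

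Alternatives were other pseudocounts, scalings, filters, eBayes settings, array weights, groups in the fit, a random block, other probe sets and leaving out each array.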

Additional observations from a re-analysis of the deposited data

Results flagged for a closer look

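Tpm1 differed between the injuries. Averaged over the 4 times it was 0.75 ± 0.17 higher in log2(signal + 13) after freeze than after contraction (limma adjusted p = 0.0147), tested as the difference itself, and 0.91 ± 0.10 higher without sample 436. With all arrays Tpm1 differed by 0.28 ± 0.32 at 6 hours, by 0.77 ± 0.36 at 1 day, by 0.89 ± 0.32 at 3 days and by 1.07 ± 0.36 at 7 days, and no single time passed the threshold.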

How the results depend on the processing

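Sample 436 decided most counts of genes called. On leaving out 1 array at a time, the genes called lower numbered 0 to 5 at 1 day after freeze, 0 to 6 at 3 days after contraction, 0 to 9 at 3 days after freeze and 0 to 1 at 7 days after freeze. For freeze against contraction they numbered 0 to 2 at 1 day, 0 to 7 at 3 days and 0 to 7 for the mean over times. Any change was called for 1 to 9 genes and the interaction for 0 to 5, and 3 paralog pairs were called without sample 436. Array weights, which gave sample 436 a weight of 0.0768, called 3 lower at 1 day after freeze, 2 at 3 days after contraction, 9 at 3 days after freeze and 2 at 7 days after freeze. They called 2 for freeze against contraction at 1 day, 7 at 3 days and 7 for the mean, 9 for any change and 5 for the interaction. Quantile normalization called 6 at 3 days after freeze. At 3 days after contraction, quantile normalization, centring on the median, no filter and the other probe sets each called 0. With only the groups compared in the fit, 2 were called at 1 day after freeze, 0 at 3 days after freeze and 1 for freeze against contraction at 1 day. With the other probe sets, any change was called for 1. The rise of Tpm1 at 3 days after freeze lost its call with only the groups compared (adjusted p = 0.352). The cause was not tested. Of the results other than the main counts, most of them for single genes, 0 reversed, 45 lost a call, 138 gained one and 7575 did not change. Another 37 were counts of genes called, not results for single genes, and moved. The groups share no replicate numbers in the labels, so samples were not matched by them. Many freeze and contraction samples of the same time carry adjacent numbers, such as 417 and 418 at 6 hours. The labels do not say what that means, and the permutation tests did not use it. In limma, adjacent sample numbers as a random block (correlation -0.0937) left every count of calls above within 1.5 times. The signals carry no measure of background or saturation, which limits the reading of the brightest and dimmest probe sets.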
